A study of Homo sapiens with 72 samples.

Results

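The step between 2 doses of triptolide, 1000 nM against 100 nM, was examined in 6 of the 72 wells of the series: all 3 wells labelled triptolide at 1000 nM and all 3 labelled triptolide at 100 nM. The series profiled U2OS cells, an established human osteosarcoma line, with population RNA-seq after 12 h with DMSO (18 wells) or with each of 6 compounds at 100, 1000 and 10000 nM. Cells grew in 24-well plates in serum-containing DMEM for at least 6 h before treatment, and poly(A) RNA was sequenced from stranded TruSeq libraries. The 3 wells at 10000 nM and the 18 DMSO wells were used as reference points on either side of the step. The labels name the same line for every well, so the groups differ there only by compound and dose. The labels do not say whether the 3 wells of a dose came from separate cultures, so p-values measure the spread between these wells, which may be technical. Dose was compared at a single time, and a gene's value is relative to its library's total, since no spike-in was described.

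Triptolide binds covalently to ERCC3 (XPB), the ATPase subunit of the general transcription factor TFIIH that opens promoter DNA for RNA polymerase II. It is also known to cause loss of the largest polymerase subunit as a protein, which was not measured here. Once initiation stops, each mRNA declines at its own rate of decay. Messages of immediate early genes, cytokine feedback regulators and many transcription factors are known for fast decay, and those of ribosomal proteins, metabolic enzymes and matrix proteins for slow decay.

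Library size was uneven across the step. The 3 libraries at 100 nM held 34502864, 70767 and 10514272 expected counts, and those at 1000 nM held 9628355, 10719474 and 57386507. Replicate 2 at 100 nM was therefore nearly empty: 1 count there stands for 14.1 CPM (counts-per-million) before TMM scaling, so its raw counts are given in place of CPM, every leading count was repeated without it, and means at 100 nM are over replicates 1 and 3. Replicate 3 at 1000 nM also stood apart. Of 7183 genes with a mean of at least 20 CPM, 379 were more than 2-fold above the mean of the other 1000 nM wells in that library and 35 more than 2-fold below. Replicates 1 and 2 at 1000 nM had 38 and 31 above and 124 and 118 below, against a mean that includes replicate 3. Any library at 10000 nM had at most 4 above and 14 below. DMSO replicate 10 held 460014 counts and was left out of the DMSO ranges given here, which cover 17 wells. Of 12 mesenchymal and bone markers, VIM, COL1A1, SPARC and FN1 each exceeded 1000 CPM (before TMM scaling) in DMSO, while TWIST1 was at 0 and COL1A2 at 0.148 CPM. Of 16 markers of other cell types, 10 averaged under 1 CPM in DMSO on the same unscaled values, among them PTPRC and ALB, and the 2 that exceeded 100 CPM were the simple-epithelial keratins KRT8 and KRT18. On TMM-scaled CPM the 16 summed to 780.3 and 860.0 in 100 nM replicates 1 and 3, 780.3, 790.4 and 616 at 1000 nM and 431 to 654 in the 18 DMSO wells. On that scale both 100 nM wells and 2 of the 1000 nM wells were above every DMSO well. Before TMM scaling the sums were 658 and 742 in those 100 nM wells, 497 to 641 at 1000 nM and 475 to 689 in 17 DMSO wells. There only the upper 100 nM value was above DMSO. KRT18 and KRT8 averaged 345 and 219 CPM in DMSO on the unscaled values. The part of other cell types in any result was not tested.

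Raising triptolide from 100 to 1000 nM lowered far more genes than it raised. Of 16472 genes tested, 2817 were lower at 1000 nM and 1308 higher (padj under 0.05 and an absolute log2(Fold Change) above 1), which is 17.1% and 7.94% of the genes tested; 12347 genes passed in neither direction. In these bulk wells, less RNA of a gene per cell and fewer cells that make it cannot be told apart. Falls were also larger than rises: 718 genes fell and 56 rose by more than 3 on the log2 scale. Without the nearly empty library the test called 3122 genes lower (17.7% of 17624) and 1260 higher (7.15%). Both fits shared 2684 lower and 1212 higher calls, and no gene was called in opposite directions. Without replicate 3 at 1000 nM, 2619 of the 2817 lower calls and 973 of the 1308 higher calls were made again. The split between directions depended on scaling: with libraries scaled to their mitochondrially encoded mRNAs, which moved the median log2(Fold Change) by -0.81, 5599 genes were lower and 205 higher. Scaling to library totals moved that median by -0.12. Fold changes here are relative to the TMM scale, on which the median over all tested genes was 0.07.

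The library of 70767 counts could be compared with the genes called without it. The 3122 genes called lower took 7.24% of its CPM, against 7.26% and 7.19% in the other 100 nM wells and 1.72%, 1.67% and 1.74% at 1000 nM. The 1260 genes called higher took 2.05%, against 1.94% and 2.05% in the other 100 nM wells and 4.26%, 4.22% and 4.94% at 1000 nM. For both gene sets the nearly empty library lay with its labelled dose and did not overlap with the 1000 nM wells, whereas single genes in it rest on a few counts.

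**Figure D1:**
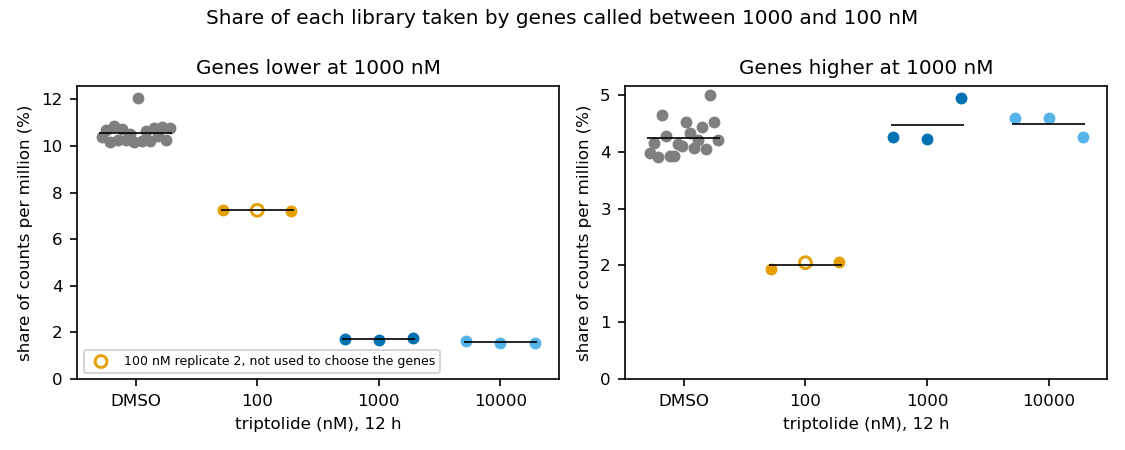
Each point is 1 library, with all 18 DMSO wells shown; the y axis gives the percentage of its CPM in the 3122 genes called lower (left) or the 1260 called higher (right) without 100 nM replicate 2, and bars mark group means. The nearly empty 100 nM library (open circle, 7.24% and 2.05%) sits with the other 100 nM wells, and the 1000 nM wells sit with the 10000 nM wells.

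Against DMSO, the 2 directions had different dose courses. Among called-lower genes with at least 1 CPM in DMSO (2583 genes), the median level was 78.9% of DMSO at 100 nM, 15.3% at 1000 nM and 15.1% at 10000 nM. Among called-higher genes (1197), it was 48.9% at 100 nM, 129% at 1000 nM and 124% at 10000 nM. On the TMM scale, that median was thus below DMSO at the lowest dose and above it at the higher doses. The median over all tested genes was 85.9%, 84.8% and 85.1% at the 3 doses. Of the 1308 genes called higher, 783 (59.9%) had 100 nM replicates 1 and 3 both below the lowest DMSO well and 106 (8.10%) had all 3 wells at 1000 nM there, against 29.9% and 30.8% of all tested genes. Of the 2817 genes called lower, 2345 (83.2%) had every 1000 nM well below the DMSO range, and 685 (24.3%, against 23.0% of all tested genes) had 100 nM replicates 1 and 3 both above it. These shares describe genes chosen on the same wells and carry no test. Gene levels against DMSO, here and below, are on the TMM scale over triptolide and DMSO wells and were not recomputed with mitochondrial scaling. Summed mitochondrially encoded mRNAs had a median of 2231 CPM in DMSO. They measured 6451 and 7248 CPM in 100 nM replicates 1 and 3 and 9470 to 13476 CPM at 1000 nM. With mitochondrial scaling, treated wells would therefore stand lower against DMSO.

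The largest fall among protein-coding genes that passed the naming rule was in IRF1 (ENSG00000125347, GRCh38 chr5:132440440-132508719, minus strand), a transcription factor of interferon and NF-kB responses. It measured 52.3 and 39.9 CPM at 100 nM with 1 count in the nearly empty library, 0.127, 0.460 and 0.238 CPM at 1000 nM, and 15.2 to 25.3 CPM with a median of 20.7 in DMSO. Wells at 100 nM were above every DMSO well and wells at 1000 nM below every one (log2(Fold Change) -7.36 ± 0.36 (SE), padj = 1.84e-08). SNAI1, a repressor of epithelial genes, measured 40.4 and 48.7 CPM with 2 counts in the nearly empty library at 100 nM, and 0, 0.575 and 0.367 CPM at 1000 nM. Its DMSO range was 9.73 to 17.4 CPM with a median of 13.8, so it had the same order of groups as IRF1 (log2(Fold Change) -6.93 ± 0.38 (SE), padj = 2.81e-08). NFKBIA, the inhibitor that retains NF-kB in the cytoplasm, stood at 17.6 and 14.2 CPM with 1 count in the nearly empty library, then 0.127, 0.115 and 0.194 CPM at 1000 nM. Here 100 nM lay below the DMSO range of 26.5 to 40.6 CPM with a median of 32.3, and 1000 nM lower still (log2(Fold Change) -6.47 ± 0.39 (SE), padj = 5.20e-08). IER5, an immediate early response gene, gave 85.9 and 94.8 CPM and 9 counts at 100 nM, and 1.65, 1.26 and 0.907 CPM at 1000 nM. At 100 nM it was in the upper part of the DMSO range or just above it (56.6 to 92.1 CPM with a median of 73.6), and at 1000 nM far below (log2(Fold Change) -6.30 ± 0.26 (SE), padj = 1.65e-08).

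The other 6 of the 10 largest falls were FRAT2, a GSK3-binding protein of Wnt signalling, HPS6, a subunit of a lysosome-related organelle complex, ZSWIM3, SERTAD3, TBCC, a tubulin-folding cofactor, and FADD, the adaptor of death receptors. Their log2(Fold Change) ran from -6.62 to -6.29, and their summed counts over the 3 wells at 1000 nM from 4 to 30, so sampling error is wide at that dose. TBCC measured 46.3 and 38.5 CPM and 3 counts at 100 nM, then 0.635, 0.460 and 0.454 CPM (log2(Fold Change) -6.39 ± 0.29 (SE), padj = 1.65e-08). FADD measured 30.0 and 30.1 CPM at 100 nM with no count in the nearly empty library, then 0, 0.345 and 0.454 CPM (log2(Fold Change) -6.29 ± 0.45 (SE), padj = 1.87e-07). None of the 10 genes overlapped between the 1000 nM wells and replicates 1 and 3 at 100 nM, which the naming rule required. NFKBIA and FRAT2 passed the filter on low counts only through their 100 nM wells, with 1 count each in the nearly empty library. Genes of this kind also count in the list shares below.

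**Figure D2:**
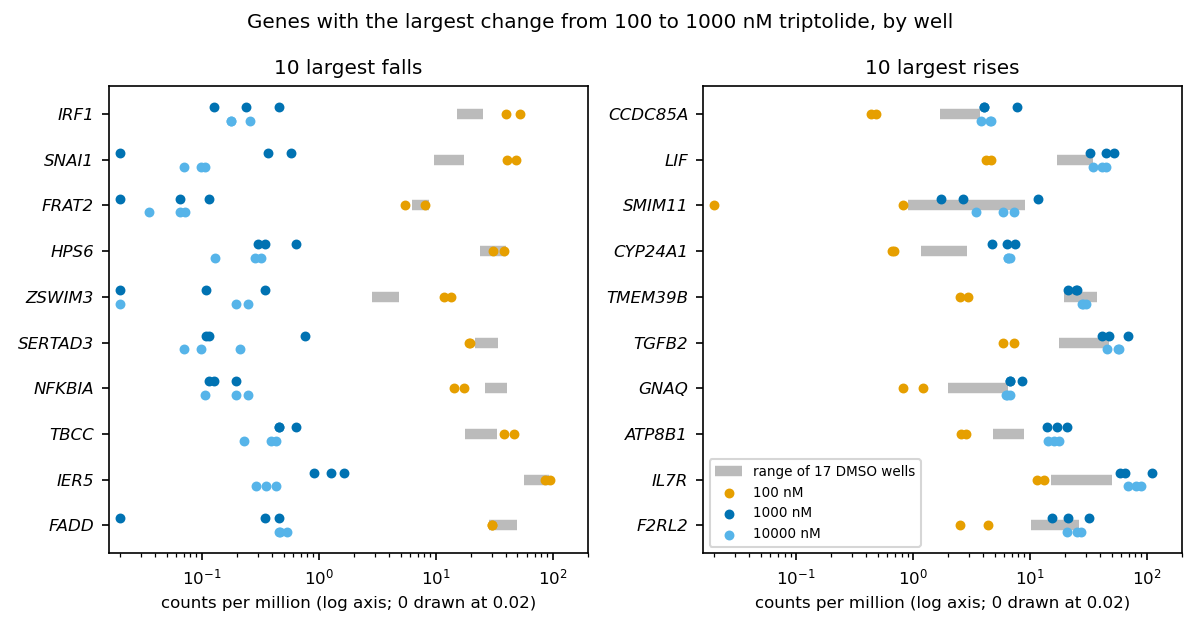
CPM (log axis) in each well for the 10 largest falls (left) and rises (right) among protein-coding genes that passed the naming rule. Grey bars span 17 DMSO wells, 100 nM replicate 2 is not drawn, and a level of 0 is placed at the left end of the axis. For the falls every 1000 and 10000 nM well lies far below the 100 nM wells, with IER5 highest at 0.907 to 1.65 CPM at 1000 nM and lower, at 0.293 to 0.427 CPM, at 10000 nM; for LIF the 100 nM wells (4.23 and 4.63) lie below the DMSO range and the 1000 nM wells (32.4 to 52.9) in its upper part or above it.

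Immediate early and other fast-decaying regulator genes fell almost as a whole. Of 61 listed genes, 53 passed the filter on low counts. By edgeR 49 of these were lower at 1000 nM (92.5%, against 17.1% of all tested genes) and 0 higher, with a median log2(Fold Change) of -3.67. By DESeq2, 47 were lower and 0 higher. Without the nearly empty library 58 were tested, 53 lower and 1 higher, the one being KLF11. Summed over the list, levels were 1980 and 2023 CPM in replicates 1 and 3 at 100 nM, 289, 286 and 241 CPM at 1000 nM, and a median of 2325 CPM in DMSO, so the 100 nM wells were close to DMSO and the 1000 nM wells far below. The growth factor-induced FOS fell from a mean of 27.3 to 1.24 CPM (log2(Fold Change) -4.36), JUNB from a mean of 33.7 to 0.948 CPM (log2(Fold Change) -5.05) and the mRNA decay factor ZFP36 from a mean of 12.1 to 0.408 CPM (log2(Fold Change) -4.51). EGR1 fell from a mean of 52.4 to 4.66 CPM (log2(Fold Change) -3.49) and ATF3, a stress-induced factor, from a mean of 50.6 to 4.54 CPM (log2(Fold Change) -3.35). The 4 members tested and not called were DUSP8, JUND, HEY1 and KLF11, with log2(Fold Change) from -1.21 to 0.94.

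The list was not uniform at 100 nM. FOSB, a partner of JUN proteins, averaged 50.3 CPM at 100 nM against a DMSO range of 0.435 to 1.79 CPM with a median of 1.25, and fell at 1000 nM by 5.05 on the log2 scale. SNAI1, ATF3 and PLK3 were likewise above their DMSO ranges at 100 nM, PLK3 at 46.2 CPM against a DMSO median of 16.4. Other members had already dropped at 100 nM: MYC stood at 53.2 and 52.3 CPM and 4 counts at 100 nM, against a DMSO range of 118 to 162 CPM with a median of 133, and at 5.08, 1.15 and 2.25 CPM at 1000 nM. The MYC wells of the 3 groups did not overlap (log2(Fold Change) -4.26 ± 0.36 (SE), padj = 9.70e-07). JUN averaged 40.1 CPM at 100 nM and 2.88 at 1000 nM, with a DMSO median of 118. The DMSO ranges leave out replicate 10, whose 34.4 CPM of FOSB, 27.1 CPM of SNAI1, 28.9 CPM of PLK3 and 107 CPM of ATF3 were the highest of all 18 DMSO wells. With that well counted, FOSB, SNAI1 and PLK3 at 100 nM were still above DMSO and ATF3 was not. FOSB, PLK3, ATF3 and JUN were picked for these sentences after their values were seen.

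Among the genes of the transcription machinery, ERCC3, which encodes the target, was not called. ERCC3 measured 73.6 and 61.9 CPM and 6 counts at 100 nM, 86.9, 78.2 and 80.3 CPM at 1000 nM, and 63.5 to 75.4 CPM with a median of 71.3 in DMSO. Every 1000 nM well was above both 100 nM wells and above the DMSO range, but the difference over the step did not pass the threshold (log2(Fold Change) 0.29 ± 0.15 (SE), padj = 0.142, edgeR), and the sign turned to -0.52 with mitochondrial scaling. Of 10 TFIIH subunit genes, 1 was lower (10.0%, against 17.1% of all tested genes) and 0 higher. The one was CDK7 (ENSG00000134058, GRCh38 chr5:69234795-69277430, plus strand), the kinase that phosphorylates the polymerase tail, at 10.1 and 12.6 CPM and 2 counts at 100 nM and 1.52, 2.53 and 1.97 CPM at 1000 nM. It was below the DMSO range of 25.5 to 39.0 CPM with a median of 30.0 at both doses and fell further over the step (log2(Fold Change) -2.51 ± 0.31 (SE), padj = 2.75e-05). The median of the TFIIH list was 0.44, and -0.34 with mitochondrial scaling.

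POLR2A encodes the largest subunit of RNA polymerase II (ENSG00000181222, GRCh38 chr17:7484366-7514616, plus strand). Of 12 polymerase II subunit genes it was the only one edgeR called (8.33%, against 17.1% of all tested genes called lower), while DESeq2 called 2. It measured 2077 and 2042 CPM at 100 nM with 108 counts in the nearly empty library, 272, 287 and 255 CPM at 1000 nM, 112, 113 and 140.2 CPM at 10000 nM, and 227 to 324 CPM with a median of 281 in DMSO. The 100 nM wells were far above every DMSO well, at 747% of the DMSO mean, the 1000 nM wells were inside the DMSO range, and the 10000 nM wells were below it. The fall over the step was called (log2(Fold Change) -2.76 ± 0.16 (SE), padj = 3.95e-08), as was the further fall to 10000 nM (log2(Fold Change) -1.20 ± 0.15 (SE), padj = 0.00598). The other 11 subunit genes ran from -0.97 for POLR2D to 0.42 for POLR2J.

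Other initiation and elongation factors split. Of 23 general initiation factor genes outside TFIIH, 7 were lower (30.4%, against 17.1% of all tested genes) and 1 higher. GTF2E1, a subunit of TFIIE, fell from a mean of 45.9 to 1.12 CPM (log2(Fold Change) -5.16), GTF2B, which bridges promoter and polymerase, from a mean of 38.2 to 1.26 CPM (log2(Fold Change) -4.97), and TBP, the TATA-binding protein, from a mean of 14.5 to 1.47 CPM (log2(Fold Change) -3.14). GTF2E1 and GTF2B at 100 nM were above their DMSO ranges, whose highest wells were 29.1 and 30.5 CPM. The rise of GTF2E2 rested on replicate 3 at 1000 nM (9.52, 9.09 and 25.1 CPM), and it was not called without that library (log2(Fold Change) 0.50). Of 23 pause release and elongation factor genes, 9 were lower (39.1%) and 1 higher. The falling members included HEXIM1, the inhibitor of P-TEFb, from a mean of 163 to 12.4 CPM (log2(Fold Change) -3.67), the P-TEFb subunits CCNT1 from a mean of 46.9 to 3.77 CPM (log2(Fold Change) -3.51) and CDK9 from a mean of 45.8 to 13.3 CPM (log2(Fold Change) -1.84), and ELL from a mean of 43.4 to 2.64 CPM (log2(Fold Change) -4.01). LARP7, which stabilizes the 7SK RNA that holds P-TEFb inactive, rose from a mean of 7.58 to 16.8 CPM (log2(Fold Change) 1.17). Both doses were below the DMSO mean, at 34.9% and 77.5% of it for LARP7 and 23.7% and 52.1% for GTF2E2. SUPT5H was not called, with a log2(Fold Change) of 0.34.

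**Figure D3:**
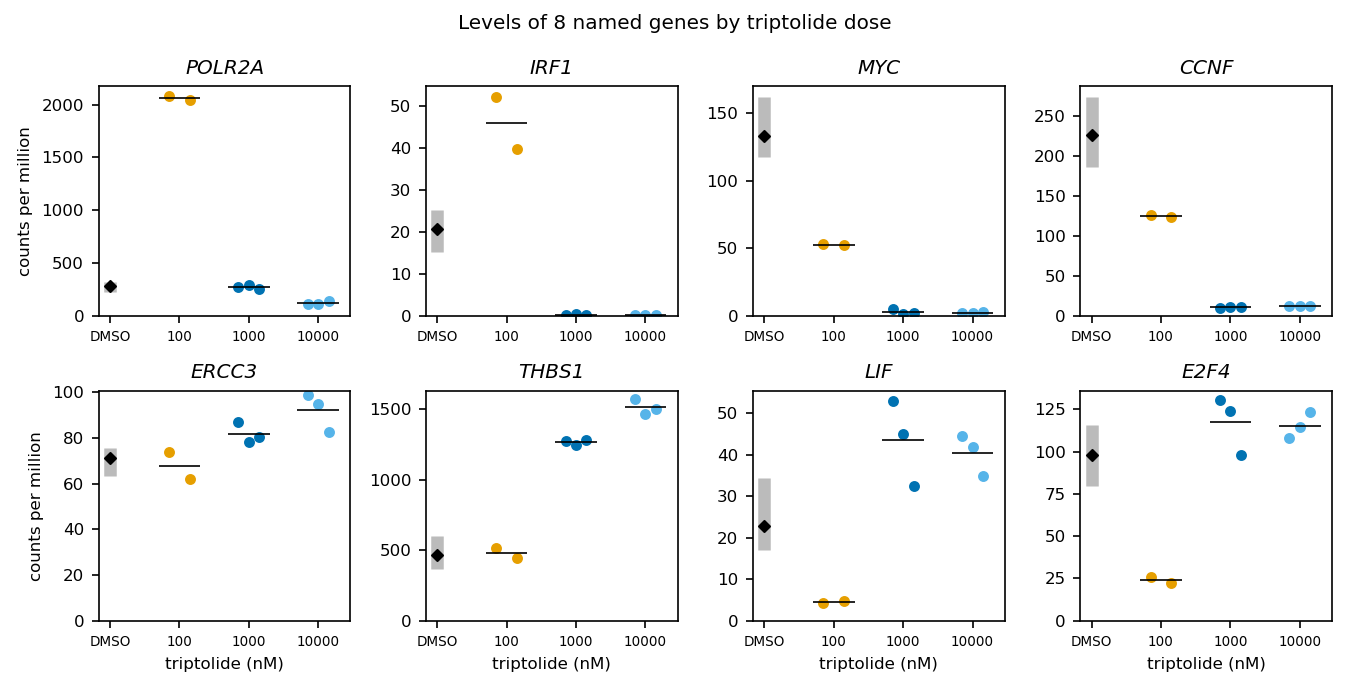
CPM in each well of 8 named genes by triptolide dose (100 nM replicate 2 not drawn); grey bars span 17 DMSO wells, diamonds mark their median and lines mark dose means. POLR2A peaks at 100 nM, MYC, IRF1 and CCNF are at their low level from 1000 nM, and LIF and E2F4 are lowest at 100 nM.

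Lists of signalling and stress target genes had more lower than higher calls, as did all tested genes (17.1% and 7.94%). Most members of the NF-kB and p53 lists were not called lower. Of 17 TGF-beta and BMP response genes, 11 were lower (64.7%) and 0 higher by edgeR (median log2(Fold Change) -1.71), and by DESeq2 also 11 and 0. ID2, an inhibitor of helix-loop-helix factors, fell from a mean of 15.5 to 0.256 CPM (log2(Fold Change) -6.09) and SMAD7, the inhibitory SMAD, from a mean of 16.3 to 0.912 CPM (log2(Fold Change) -4.09). BAMBI, a BMP pseudoreceptor, had 4.23 and 3.86 CPM at 100 nM with 1 count in the nearly empty library, and 1 count in all 3 libraries at 1000 nM. It passed the filter on low counts only through its 100 nM wells, that library among them. Without that library it was again called lower (log2(Fold Change) -7.42). Of 26 NF-kB target genes, 8 were lower (30.8%) and 1 higher. The falling ones included the inhibitors NFKBIA, NFKBIZ (-4.07 on the log2 scale) and NFKBIE (-3.98), whereas the subunit genes NFKB1 (-0.71) and NFKB2 (-0.41) did not pass. Of 28 p53 target genes, 12 were lower (42.9%) and 1 higher. SESN2, a stress-induced inhibitor of mTORC1 signalling, fell from a mean of 63.3 to 0.948 CPM (log2(Fold Change) -5.82) and the phosphatase gene PPM1D from a mean of 78.5 to 7.15 CPM (log2(Fold Change) -3.42). CDKN1A measured -0.81 and MDM2 -0.33, and neither was called.

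Among 17 BCL2 family genes, 7 were lower (41.2%, against 17.1% of all tested genes) and 1 higher. MCL1, a short-lived survival factor, fell from a mean of 39.7 to 4.98 CPM (log2(Fold Change) -2.92) after a DMSO median of 161 CPM. Pro-death members fell too, among them BCL2L11 (BIM) from a mean of 18.5 to 2.02 CPM (log2(Fold Change) -3.04) and BAK1 from a mean of 49.4 to 5.43 CPM (log2(Fold Change) -3.18). BCL2L2 rose: it measured 19.4 and 15.5 CPM at 100 nM with no count in the nearly empty library, 70.6, 92.3 and 84.8 CPM at 1000 nM and 32.3 to 40.9 CPM with a median of 38.0 in DMSO (log2(Fold Change) 2.29 ± 0.21 (SE), padj = 1.83e-06). Wells at 100 nM were below and wells at 1000 nM above every DMSO well. BCL2L1, which encodes BCL-XL, was not called (0.38).

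In the lists of this paragraph more genes fell than rose, as over all tested genes (17.1% lower and 7.94% higher). Of 25 mRNA decay factor genes, 12 were lower and 4 higher. The deadenylation adaptors BTG1, BTG2, TOB1 and TOB2 fell by log2(Fold Change) of -5.70, -4.97, -4.07 and -3.79, and HNRNPD (AUF1), an AU-rich element binder, rose from a mean of 140.3 to 396 CPM (log2(Fold Change) 1.53). The exonuclease gene XRN1 rose from a mean of 4.48 to 10.4 CPM (log2(Fold Change) 1.34) but was not called without replicate 3 at 1000 nM. It stood at 20.6% of the DMSO mean at 100 nM and 47.9% at 1000 nM. Of 18 SR splicing factor and CLK genes, 6 were lower (33.3%) and 0 higher by edgeR and by DESeq2, led by the kinases CLK2 (-4.20) and CLK1 (-4.13). Of 10 MYC and MAX network genes, 5 were lower (50.0%) and 0 higher, and by DESeq2 4 and 0. Of 35 ribosome biogenesis genes, 13 were lower (37.1%) and 1 higher. NOP16 fell from a mean of 35.3 to 1.92 CPM (log2(Fold Change) -4.17) and TCOF1 rose from a mean of 109.8 to 233 CPM (log2(Fold Change) 1.15). The zinc finger genes of chromosome 19, mostly KRAB-type repressors in clusters, gave 84 lower (49.7%) and 1 higher of 169 tested (median -1.68), and by DESeq2 57 and 0. Of these, ZNF574 fell from a mean of 50.0 to 1.47 CPM (log2(Fold Change) -4.95), and ZNF738 rose from a mean of 1.70 to 4.46 CPM (log2(Fold Change) 1.39). Reads of near-identical zinc finger paralogs can be split between copies by the counting, so single members are uncertain.

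**Figure D4:**
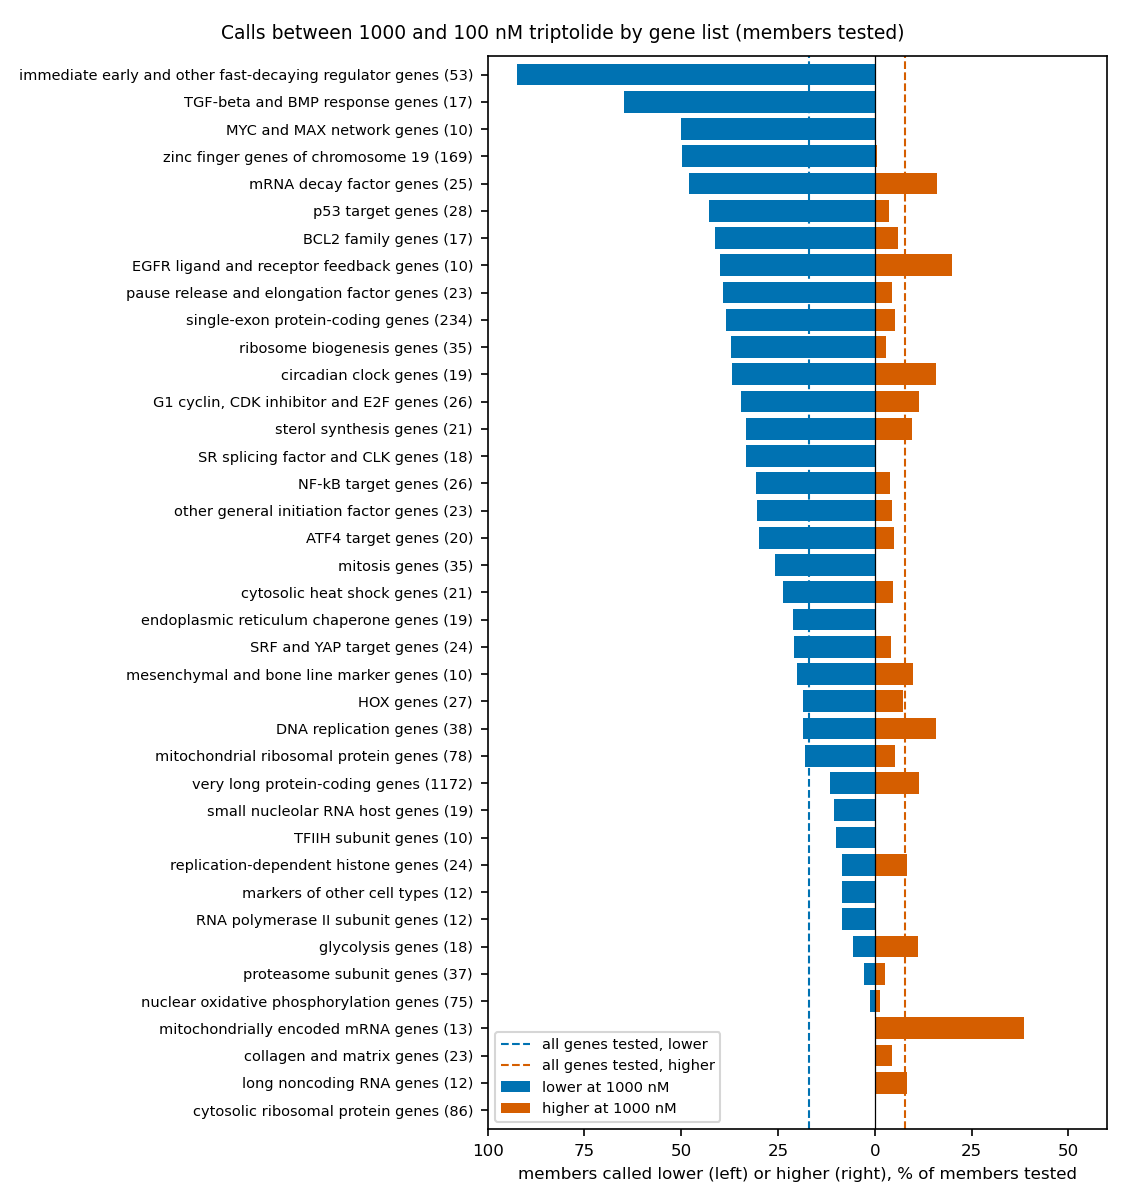
Bars give the percentage of tested members of each of 39 gene lists called lower (left) or higher (right) at 1000 nM, with the number tested in parentheses; dashed lines mark all genes tested (17.1% and 7.94%). The list of immediate early and other fast-decaying regulator genes reaches 92.5% lower, and cytosolic ribosomal protein genes have no call in either direction.

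Rises were fewer than falls, and fewer of them were large. Over all tested genes, 21 rose and 276 fell by more than 4 on the log2 scale. The 10 rises given here are the largest among protein-coding genes that passed the naming rule. LIF (ENSG00000128342, GRCh38 chr22:30240453-30246759, minus strand), an IL-6 family cytokine, measured 4.23 and 4.63 CPM at 100 nM with no count in the nearly empty library, 52.9, 45.1 and 32.4 CPM at 1000 nM, and 17.1 to 34.4 CPM with a median of 22.7 in DMSO. It was below the DMSO range at 100 nM and in its upper part or above it at 1000 nM (log2(Fold Change) 3.35 ± 0.27 (SE), padj = 5.41e-07). TGFB2, a TGF-beta ligand (ENSG00000092969, GRCh38 chr1:218345336-218444619, plus strand), measured 5.91 and 7.28 CPM with no count in the nearly empty library, then 41.8, 47.4 and 69.5 CPM, against a DMSO range of 17.6 to 47.2 CPM with a median of 21.4 (log2(Fold Change) 3.08 ± 0.26 (SE), padj = 9.15e-07). IL7R, the interleukin 7 receptor, gave 11.5 and 13.2 CPM and 59.0, 64.6 and 111 CPM, against 15.2 to 50.1 CPM with a median of 30.2 in DMSO (log2(Fold Change) 2.73 ± 0.28 (SE), padj = 4.47e-06). TMEM39B was inside its DMSO range at 1000 nM, with 2.99 and 2.54 CPM at 100 nM, 21.1, 25.5 and 24.8 CPM at 1000 nM and 19.8 to 37.3 CPM with a median of 29.8 in DMSO (log2(Fold Change) 3.13 ± 0.22 (SE), padj = 1.87e-07). CYP24A1, the enzyme that inactivates vitamin D, rose from a mean of 0.674 to 6.17 CPM (log2(Fold Change) 3.24) and GNAQ, a G protein subunit, from a mean of 1.02 to 7.34 CPM (log2(Fold Change) 2.98). ATP8B1, a phospholipid flippase, rose from a mean of 2.72 to 17.3 CPM (log2(Fold Change) 2.74), F2RL2, a protease-activated receptor, from a mean of 3.47 to 22.8 CPM (log2(Fold Change) 2.71), and CCDC85A from a mean of 0.461 to 5.31 CPM (log2(Fold Change) 3.51). SMIM11 varied more between wells, with 11.7, 1.73 and 2.68 CPM at 1000 nM (log2(Fold Change) 3.25 ± 0.86 (SE), padj = 0.00900). All 10 had 0 counts in the nearly empty library, where genes of these levels would give few or no counts.

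Named rises also lay in lists that mostly fell or did not move. E2F4, a repressor E2F of resting cells, measured 26.1 and 22.5 CPM and 3 counts at 100 nM, 131, 124 and 98.2 CPM at 1000 nM, and 79.4 to 116 CPM with a median of 98.1 in DMSO. It was below DMSO at 100 nM and at or above the middle of the DMSO range at 1000 nM (log2(Fold Change) 2.29 ± 0.18 (SE), padj = 5.37e-07). In contrast, E2F3 fell from a mean of 50.3 to 3.64 CPM (log2(Fold Change) -3.65), the CDK inhibitor gene CDKN1B from a mean of 18.5 to 0.700 CPM (log2(Fold Change) -4.90) and cyclin E1 (CCNE1) from a mean of 82.3 to 12.8 CPM (log2(Fold Change) -2.69). The list of G1 cyclin, CDK inhibitor and E2F genes gave 9 lower (34.6%) and 3 higher (11.5%) of 26, against 17.1% and 7.94% of all tested genes. THBS1, a secreted matrix glycoprotein, measured 512 and 446 CPM and 33 counts at 100 nM and 1278, 1248 and 1283 CPM at 1000 nM. At 100 nM it was inside the DMSO range of 369 to 601 CPM with a median of 465, and at 1000 nM well above it (log2(Fold Change) 1.47 ± 0.12 (SE), padj = 6.95e-07). The glycolytic genes ENO2 and PFKM rose from a mean of 85.3 to 325 CPM (log2(Fold Change) 1.92) and from a mean of 114 to 230.4 CPM (log2(Fold Change) 1.10), and HK2 fell by 1.83 on the log2 scale. The nuclear noncoding RNA NEAT1 rose from a mean of 29.1 to 97.8 CPM (log2(Fold Change) 1.79). With mitochondrial scaling the rises of THBS1, PFKM, NEAT1, GTF2E2, LARP7, HNRNPD, XRN1, TCOF1 and ZNF738 were not called. Those of E2F4, ENO2, BCL2L2 and the 10 largest under the naming rule were.

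Cell cycle genes changed in part. Of 35 mitosis genes, 9 were lower (25.7%, against 17.1% of all tested genes) and 0 higher by edgeR, with the same counts by DESeq2. CCNF (cyclin F), an F-box protein of G2, measured 126 and 123 CPM and 6 counts at 100 nM, 9.90, 10.5 and 10.7 CPM at 1000 nM and 187 to 274 CPM with a median of 226 in DMSO. The groups were fully separated (log2(Fold Change) -3.50 ± 0.17 (SE), padj = 1.78e-08). CDCA8 (borealin) fell from a mean of 88.1 to 8.79 CPM (log2(Fold Change) -3.21) and AURKA from a mean of 54.0 to 11.6 CPM (log2(Fold Change) -2.23). CDC20, the activator of the anaphase-promoting complex, measured 249.9 and 216 CPM and 22 counts at 100 nM and 252, 261 and 208 CPM at 1000 nM, all below the DMSO range of 400.5 to 711 CPM with a median of 550.4. The 2 doses overlapped (log2(Fold Change) 0.04 ± 0.15 (SE), padj = 0.872, edgeR), and the sign changed with the scaling. Of 38 DNA replication genes, 7 were lower (18.4%, near the 17.1% of all tested genes) and 6 higher (15.8%, against 7.94%). The lower ones included ORC1 (-2.43), CDC6 (-1.93) and CDT1 (-1.56), which load the replicative helicase, and the higher ones RRM2 (1.44) and TYMS (1.11), which act in nucleotide synthesis. Neither rise passed with mitochondrial scaling, nor that of TYMS without replicate 3 at 1000 nM.

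Several other lists were close to the background of 17.1% lower: cytosolic heat shock genes had 23.8% lower, endoplasmic reticulum chaperone genes 21.1%, SRF and YAP target genes 20.8% and HOX genes 18.5%. The ATF4, circadian, sterol synthesis and EGFR feedback lists, also given here, lay further above it. The cytosolic heat shock list had 5 lower and 1 higher of 21, with DNAJB1 at a log2(Fold Change) of -3.59. HSPA1B fell by 3.76 on the log2 scale, but reads from the near-identical HSPA1A may be assigned to it. Endoplasmic reticulum chaperone genes had 4 lower and 0 higher of 19, led by XBP1 from a mean of 25.2 to 2.12 CPM (log2(Fold Change) -3.52). ATF4 target genes had 6 lower (30.0%) and 1 higher of 20, with CHAC1 from a mean of 5.52 to 0.0959 CPM (log2(Fold Change) -5.38). Of 24 SRF and YAP target genes, 5 were lower and 1 higher, among them CCN1 from a mean of 137 to 5.72 CPM (log2(Fold Change) -4.49) and CCN2 (log2(Fold Change) -2.56). The circadian list had 7 lower (36.8%) and 3 higher (15.8%, against 7.94% of all tested genes) of 19. BHLHE40 went from a mean of 51.4 to 2.42 CPM (log2(Fold Change) -4.55) and NR1D2 from a mean of 14.9 to 52.5 CPM (log2(Fold Change) 1.88). Sterol synthesis genes had 7 lower (33.3%) and 2 higher (9.52%) of 21. The EGFR ligand and receptor feedback list had 4 lower and 2 higher of 10. Its ligand genes HBEGF and EREG were above DMSO at 100 nM, HBEGF at 115 and 93.0 CPM against 26.3 to 45.2 CPM with a median of 34.8, and fell to 40.2, 28.5 and 29.1 CPM at 1000 nM. The HOX list had 5 lower and 2 higher of 27.

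Most lists of housekeeping messages had few calls, against 17.1% lower and 7.94% higher over all tested genes. Of 86 cytosolic ribosomal protein genes tested, 0 were called in either direction by edgeR and 0 by DESeq2, and their median log2(Fold Change) was 0.04, or -0.14 on library totals. With mitochondrial scaling 13 of them were lower (median -0.83). Nuclear oxidative phosphorylation genes gave 1 lower and 1 higher of 75, proteasome subunit genes 1 and 1 of 37, and collagen and matrix genes 0 and 1 of 23. Glycolysis genes gave 1 and 2 of 18 (5.56% and 11.1%), so their share higher was not below that of all tested genes. The rise of the proteasome gene PSMA4 rested on replicate 3 at 1000 nM (84.5, 92.8 and 254 CPM) and was not called without it, and the same held for UQCRC2 of complex III. Mitochondrial ribosomal protein genes were near the background, with 14 lower and 4 higher of 78. Replication-dependent histone genes, whose messages largely lack poly(A) tails, passed the filter in 24 of 64 cases and gave 2 and 2 calls. The 2 lower ones, H3C14 and H3C15, had identical values, so their reads could not be told apart. Small nucleolar RNA host genes gave 2 and 0 of 19, long noncoding RNA genes 0 and 1 of 12, mesenchymal markers 2 and 1 of 10, and markers of other cell types 1 and 0 of 12.

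Mitochondrially encoded mRNAs took a larger share of the libraries at 1000 nM. The share of expected counts was 0.544%, 0.518% and 0.625% at 100 nM and 0.949%, 0.768% and 1.09% at 1000 nM, so the doses did not overlap. The difference of means was 0.372 percentage points, and the exact 2-sided permutation p of 0.1 is the smallest that 3 against 3 wells can give. Of 13 such genes, 5 were higher (38.5%, against 7.94% of all tested genes) and 0 lower by edgeR (median 0.96). The counts were 4 and 0 without the nearly empty library, and 0 in either direction when these genes set the scale. MT-ND4, a complex I subunit, measured 503 and 516 CPM and 20 counts at 100 nM and 1158, 732 and 1369 CPM at 1000 nM, against 54.8 to 305 CPM with a median of 147 in DMSO (log2(Fold Change) 1.26 ± 0.23 (SE), padj = 6.32e-04).

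Gene structure differed between the directions. Among tested protein-coding genes, 38.5% of the 234 with a single exon were lower at 1000 nM, 31.4% of those with 2 to 4 exons, 17.5% with 5 to 9, 15.3% with 10 to 19 and 12.2% with 20 or more. At a mean of at least 20 CPM over all wells the shares were 43.7%, 28.1%, 14.5%, 15.1% and 12.1%, so the order of the ends was the same among well-measured genes. The share lower fell with genomic span, from 23.3% in the shortest class to 11.5% at 200000 bases or more, and the share higher rose from 4.95% to 11.5%. Of 1172 genes in that longest class, 135 were lower and 135 higher by edgeR, and 90 and 75 by DESeq2. Genes whose transcripts had under 40% GC were higher in 14.1% of cases, against 5.70% at 50 to 55% GC. Median span was 28529 bases for lower, 47221 for higher and 35701 for uncalled genes. The share lower was 18.3% for protein-coding genes, 13.7% for long noncoding RNA genes and 3.40% for processed pseudogenes. These shares are descriptions: exon number, span, GC content and level vary together, and their parts were not tested. They were not repeated without replicate 3 at 1000 nM, without which 973 of the 1308 higher calls were made again. Very long genes summed to 50863 CPM in that library, against 45344 and 43738 CPM in replicates 1 and 2. The part of that library in the shares was not tested.

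**Figure D5:**
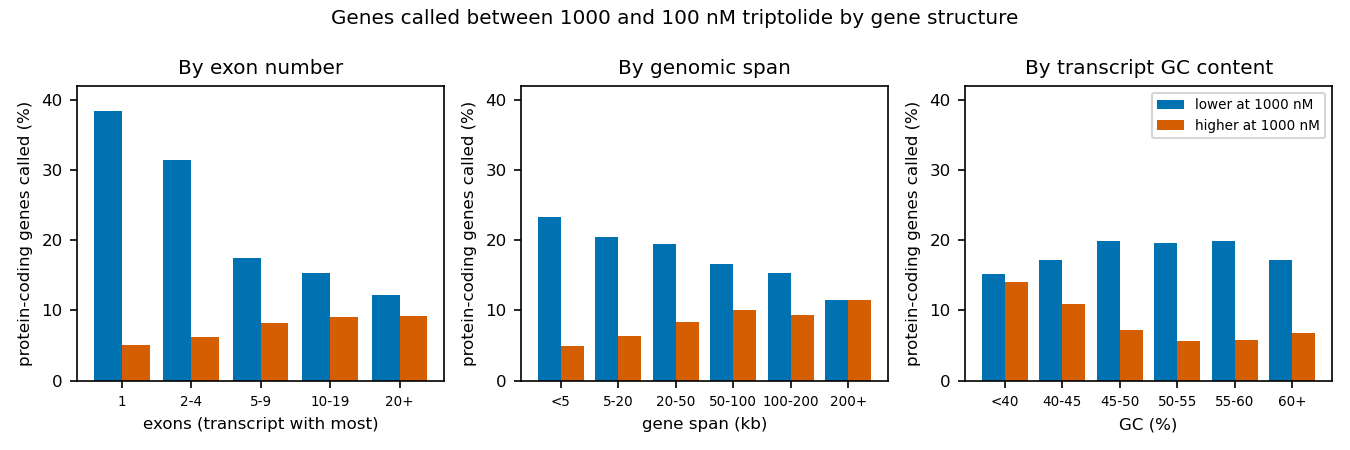
Percentage of tested protein-coding genes called lower (blue) or higher (orange) at 1000 nM by exon number, genomic span in kb and transcript GC content. The lower share drops from 38.5% with 1 exon to 12.2% with 20 or more, and both shares are 11.5% at spans in the longest class.

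Promoters were compared through RefSeq windows (GRCh38.p14) from 250 bases before to 50 after the annotated start, which matched 10858 of 13524 tested protein-coding genes. CCAAT, the NF-Y element, was present on either strand in 42.3% of the 2018 lower genes, 29.2% of the 896 higher genes and 36.0% of all tested genes. GGAAGT, an ETS-type element, was present in 31.8%, 19.5% and 27.0%, and TGACGT, the core of a CREB/ATF element, in 13.9%, 9.38% and 11.4%. GGGCGG, the Sp1-type GC box, was present in 71.0%, 68.3% and 69.5%, TATAAA in 6.69%, 5.69% and 5.69%, and TGACTCA, the AP-1 element, in 3.27%, 2.46% and 3.18%. Over all 27305 windows of this length the shares were 35.7% for CCAAT, 23.2% for GGAAGT and 8.32% for TGACGT. Without the nearly empty library the CCAAT shares were 41.9% and 29.7%. Sites of different motifs can overlap, and a match is a string of letters, not a binding site. The 250 bases before the start are shown for 3 genes that fell (IER5, TBCC, POLR2A) and 2 that rose (TGFB2, E2F4), chosen to show promoters with and without CCAAT; capitals mark matches to any of the 6 motifs on either strand, so a motif may be read there as its reverse complement.
IER5 (chr1:181088450-181088699, plus strand): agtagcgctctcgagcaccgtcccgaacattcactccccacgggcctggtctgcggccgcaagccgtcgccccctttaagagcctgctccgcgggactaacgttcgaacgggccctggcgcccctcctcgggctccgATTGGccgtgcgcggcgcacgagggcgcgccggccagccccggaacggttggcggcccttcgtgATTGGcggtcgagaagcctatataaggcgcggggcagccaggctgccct
TBCC (chr6:42746104-42746353, minus strand): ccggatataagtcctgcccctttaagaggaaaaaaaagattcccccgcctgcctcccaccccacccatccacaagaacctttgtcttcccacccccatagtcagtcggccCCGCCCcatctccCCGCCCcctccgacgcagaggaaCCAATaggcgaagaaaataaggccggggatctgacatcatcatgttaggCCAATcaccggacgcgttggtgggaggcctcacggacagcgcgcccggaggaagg
POLR2A (chr17:7484116-7484365, plus strand): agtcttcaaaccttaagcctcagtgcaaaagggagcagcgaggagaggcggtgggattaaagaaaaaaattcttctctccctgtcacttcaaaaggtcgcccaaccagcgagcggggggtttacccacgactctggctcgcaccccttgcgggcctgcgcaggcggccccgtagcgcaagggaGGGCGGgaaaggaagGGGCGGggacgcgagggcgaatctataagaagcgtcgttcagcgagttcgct
TGFB2 (chr1:218345086-218345335, plus strand): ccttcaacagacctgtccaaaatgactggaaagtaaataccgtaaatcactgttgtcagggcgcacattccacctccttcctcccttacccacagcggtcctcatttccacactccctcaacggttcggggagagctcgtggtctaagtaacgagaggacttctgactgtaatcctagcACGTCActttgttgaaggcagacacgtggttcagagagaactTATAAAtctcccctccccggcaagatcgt
E2F4 (chr16:67191905-67192154, plus strand): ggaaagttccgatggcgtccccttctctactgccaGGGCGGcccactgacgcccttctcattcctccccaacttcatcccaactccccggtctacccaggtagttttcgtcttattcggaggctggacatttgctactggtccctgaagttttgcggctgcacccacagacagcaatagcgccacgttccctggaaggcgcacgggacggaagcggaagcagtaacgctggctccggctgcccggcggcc

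IER5 and TBCC each held CCAAT letters at 2 places within 250 bases, and POLR2A, TGFB2 and E2F4 held none. TGFB2 was the one of the 5 with TATAAA.

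The next step, from 1000 to 10000 nM, changed little. edgeR called 16 genes lower (0.0971%) and 0 higher (0%), with 826 genes at an unadjusted p under 0.05, 170 of them higher, and DESeq2 called 22 lower and 1 higher. These counts moved with single libraries, from 4 to 93 lower when 1 was left out: every one of the 9 triptolide libraries except 1000 nM replicate 2 (18 lower without it) moved the count by over 1.5 times, and without replicate 3 at 1000 nM they were 93 lower and 40 higher. Both steps share the 1000 nM wells, so their fold changes are not independent. All 16 genes were also called lower from 100 to 1000 nM, but PCDH8 not without the nearly empty library. Besides POLR2A they included the immediate early genes FOSB, RHOB and MAFF, the deadenylation adaptors TOB1 and TOB2, and NXF1, the mRNA export receptor. NXF1 measured 500.1 and 368 CPM and 19 counts at 100 nM, 65.7, 59.6 and 60.1 CPM at 1000 nM and 26.0, 24.7 and 27.0 CPM at 10000 nM. Like POLR2A it was above the DMSO range of 78.1 to 105 CPM with a median of 91.9 at 100 nM and below it at 10000 nM, and at 1000 nM it was already below (log2(Fold Change) of the second step -1.30 ± 0.17 (SE), padj = 0.00730). CSRNP2, a nuclear transcriptional activator, measured 249 and 233 CPM at 100 nM, 16.4, 11.2 and 14.3 CPM at 1000 nM and 4.46, 4.30 and 4.27 CPM at 10000 nM, with 32.7 to 42.5 CPM with a median of 37.2 in DMSO. Of these genes only POLR2A, FOSB, RHOB, MAFF, TOB1 and TOB2 were members of the gene lists; the others were named after their values were seen.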

How the data were processed

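Population RNA-seq was read from 1 deposited table per well, in which the authors gave expected counts, TPM and FPKM for 60371 Ensembl genes after RSEM quantification. The submitters' processing notes name RSEM, HTSeq, DESeq2 and GRCh38, without versions. TPM as deposited was used once, for the mitochondrial share, and FPKM was not used. Wells were grouped by their labels. Expected counts as deposited were rounded and fitted with edgeR 4.0.16 (R 4.3.3; TMM scaling, filterByExpr with a smallest count of 10, quasi-likelihood test, Benjamini-Hochberg adjustment) over the 9 triptolide wells, so that the 3 doses shared 1 estimate of spread. A call needed padj under 0.05 and an absolute log2(Fold Change) above 1. The SE is the absolute log2(Fold Change) divided by the square root of F. Every padj in the text comes from this fit. CPM were TMM-scaled over triptolide and DMSO wells. Levels against DMSO were ratios of mean CPM, for genes with at least 1 CPM in DMSO. Positions, exon numbers and GC content came from GENCODE 44 (56104 IDs matched), and promoter windows from RefSeq.

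Members and gene lists were chosen with earlier results of these data known. Named were the 10 largest falls and rises among protein-coding genes that were called with and without 100 nM replicate 2, reached 5 CPM in the higher group and did not overlap between replicates 1 and 3 at 100 nM and the 1000 nM wells, up to 2 called members per list and direction, and ERCC3, CDC20 and CCNF. Other list members were named as examples after their values were seen. Alternatives were DESeq2 1.42.0, other scalings, filters and sets of wells, a replicate block and leaving out each well. Scripts were tested on simulated data. Expected counts spread shared reads over similar genes, and the depth of each triptolide library is given with the results.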

Additional observations from a re-analysis of the deposited data

How the results depend on the processing

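Leaving out 1 triptolide well at a time gave 2257 to 3361 genes lower and 1207 to 1636 higher at 1000 nM than at 100 nM, 4 to 93 lower and 0 to 40 higher at 10000 nM than at 1000 nM. Between 100 and 1000 nM, mitochondrial scaling gave 5599 lower and 205 higher, at least 10 counts in every deep well 1827 and 771 (11519 genes tested), and 850 were higher with only these doses fitted and 738 by DESeq2; DESeq2 without the nearly empty library, an alternative chosen after seeing the data, gave 3190 and 1250. For the second step the lower count was 3 with only these doses fitted, 34 with DMSO wells in the fit, 53 with mitochondrial scaling, 134 with no filter and 51 by DESeq2 without the nearly empty library, and the higher count was 2 with DMSO wells, 19 with no filter and 1 by DESeq2 (with or without that library) and with mitochondrial scaling. The causes were not tested. With a replicate block the first step had 2574 lower and 1190 higher and the second 12 and 1, or 2639, 1094, 9 and 0 without the nearly empty library. Same-numbered wells did not deviate together (mean correlation -0.24, 0 of 7 pairs above 0.1). Deviations from the mean of so few wells are not independent, so these values cannot tell whether the numbers pair the wells. Genes detected with at least 1 count differed by 2242 (1000 minus 100 nM; exact permutation p = 0.9), and by -2535 without the nearly empty library (p = 0.4), and the mitochondrial share by 0.35 percentage points without it and by 0.760 as a share of TPM. CDC20 changed sign to -0.0738 and -0.01 when 100 nM replicate 3 or 1000 nM replicate 2 was left out (range over all wells left out -0.0738 to 0.16), to -0.0523 with only these doses fitted, -0.12 on library totals, -0.81 with mitochondrial scaling and -0.0844 with the strict filter, and ERCC3 to -0.52 with mitochondrial scaling. Of 117 named genes, 30 lost their call with mitochondrial scaling, 11 by DESeq2, 8 without 1000 nM replicate 3 and 0 without the nearly empty library. Depth limits single genes at 1000 nM that rest on a few counts, and 100 nM has only replicates 1 and 3 with usable depth.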
